A study of Homo sapiens with 9 samples.

Results

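The baseline transcriptome of U2-OS cells was described from 3 of the 9 libraries of the series, which are the 3 libraries of empty-vector clones. U2-OS is an established human osteosarcoma cell line, an adherent line from a malignant bone tumour. The members were all libraries that the labels name Vector, which are Vector1C, Vector2A and Vector3B, and the counts on the strand of the gene were used. The series' design text names 3 empty-vector clones, made in the same way as the NCBP2-overexpressing clones. The labels do not tie a library to a clone: the 3 libraries were read as 1 from each clone by the digit in their names, and what the letters stand for is not stated. Every value given between clones rests on that reading. No parental line without a vector was analysed here. All were grown in DMEM with serum and antibiotics, and all libraries were prepared after ribosomal RNA removal, although 1 label field describes the RNA as polyadenylated. The selection marker, the passage and the promoter of the vector are not given in the sources used here. With 1 library for each clone, a difference between clones, cultures and library preparations cannot be told apart, and no difference between clones has a test. Values are given for Vector1C, Vector2A and Vector3B in that order.

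Osteosarcoma cells are thought to arise in the bone-forming lineage, in which the transcription factor RUNX2 acts first and SP7 follows. Mature osteoblasts then secrete type I collagen, built from COL1A1 and COL1A2 chains, together with SPARC, bone sialoprotein (IBSP) and osteocalcin (BGLAP), and osteocytes make MEPE, DMP1 and sclerostin (SOST). Cell division in most tumours depends on losing brakes of the RB1 pathway, among them a product of CDKN2A that inhibits CDK4 and CDK6. Chromosome ends are maintained either by telomerase, with the catalytic subunit TERT, or by a recombination-based route that has been linked to loss of ATRX or DAXX.

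Upstream sequences of 5 genes are shown because these genes carry the contrasts described next: CDKN2A without a count beside its neighbour CDKN2B, TERT and the osteocyte gene MEPE without a count, and SPARC among the genes of highest level. They are the up to 250 bases before annotated starts from RefSeq (GRCh38.p14), 5′ to 3′ on the strand of the gene, cut at the first base that the annotation gives as exonic. The capitals mark each CG dinucleotide, the site of DNA methylation in vertebrates.
CDKN2A, upstream start, chr9:21995325-21995574, minus strand: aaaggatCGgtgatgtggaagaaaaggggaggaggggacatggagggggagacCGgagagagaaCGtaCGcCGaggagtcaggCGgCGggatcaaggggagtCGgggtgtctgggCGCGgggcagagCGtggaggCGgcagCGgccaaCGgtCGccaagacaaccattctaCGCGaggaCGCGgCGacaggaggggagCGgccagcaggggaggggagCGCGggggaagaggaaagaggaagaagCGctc
CDKN2A, downstream start, chr9:21974867-21975107, minus strand: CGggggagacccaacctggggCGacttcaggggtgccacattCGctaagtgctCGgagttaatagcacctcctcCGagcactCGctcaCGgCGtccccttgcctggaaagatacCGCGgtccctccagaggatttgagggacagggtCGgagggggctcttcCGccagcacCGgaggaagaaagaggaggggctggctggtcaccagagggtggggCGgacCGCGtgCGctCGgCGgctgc
CDKN2B, chr9:22009306-22009555, minus strand: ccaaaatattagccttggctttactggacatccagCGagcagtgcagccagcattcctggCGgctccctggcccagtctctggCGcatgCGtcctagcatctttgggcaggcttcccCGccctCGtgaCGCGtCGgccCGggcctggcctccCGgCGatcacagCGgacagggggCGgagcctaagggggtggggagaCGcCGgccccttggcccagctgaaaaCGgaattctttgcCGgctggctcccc
TERT, chr5:1295069-1295318, minus strand: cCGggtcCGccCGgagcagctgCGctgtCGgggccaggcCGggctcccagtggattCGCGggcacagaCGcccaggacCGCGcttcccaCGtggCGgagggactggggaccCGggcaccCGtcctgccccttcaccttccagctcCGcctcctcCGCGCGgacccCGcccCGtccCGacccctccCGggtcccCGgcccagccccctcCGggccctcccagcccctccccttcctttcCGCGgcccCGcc
MEPE, chr4:87821148-87821397, plus strand: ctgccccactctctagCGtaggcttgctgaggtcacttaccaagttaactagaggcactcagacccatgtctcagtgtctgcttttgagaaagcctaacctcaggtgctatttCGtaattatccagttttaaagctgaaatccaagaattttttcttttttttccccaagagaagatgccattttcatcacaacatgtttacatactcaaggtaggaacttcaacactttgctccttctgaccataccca
SPARC, chr5:151686976-151687165, minus strand: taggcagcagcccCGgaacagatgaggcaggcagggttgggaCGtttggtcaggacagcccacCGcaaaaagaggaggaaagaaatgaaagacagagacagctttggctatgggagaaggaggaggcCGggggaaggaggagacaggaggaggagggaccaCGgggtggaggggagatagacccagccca
The sequence at the upstream start of CDKN2A holds 24 CG dinucleotides and that at the downstream start 19, with 18 for CDKN2B and 28 for TERT. MEPE holds 2 and SPARC 5, in 250 and 190 bases.

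The 3 libraries held 89663833, 100149195 and 91118400 reads, of which 41901361, 47283279 and 50554080 were counted on the strand of annotated genes. Reads assigned to no gene on that strand were 45.7%, 41.7% and 32.4% of the uniquely aligned reads, so Vector3B lay apart with the lowest share. How many of them lie in introns, on the opposite strand or outside genes was not analysed here. Reads with several alignments were 7.61%, 11.13% and 10.46% of all reads and are not in the counts. Levels between genes are given in TPM, counts divided by exon length and scaled to a fixed total per library, and differences between libraries in CPM, counts scaled to a fixed total after TMM scaling. A gene is called expressed at 1 TPM or more in each library and not detected at 3 counts or fewer in each, which corresponds to 0.0722, 0.0641 and 0.0583 CPM. Genes between these limits are called trace.

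Of 19873 nuclear protein-coding genes in the annotation, 11302 were expressed, 4060 were at a trace level and 4511 were not detected. The share expressed was 56.9% and the share not detected 22.7%, and the gene lists described here are read against these values. Among the expressed genes, the median level was 16.6 TPM. Levels from 1 to 10 TPM were found for 4081 genes, 10 to 100 TPM for 6327, 100 to 1000 TPM for 877 and 1000 TPM or more for 17. A further 927 genes reached 1 TPM in 1 or 2 libraries only. The number of protein-coding genes at 1 TPM or more was close in the 3 libraries, at 11789, 11719 and 11790. Not being counted is no proof of absence for every gene. Of the 4511 genes not detected, 603 (13.4%) share over 50% of their exon bases with another gene on the same strand, where reads are not assigned to either. In addition, 18 of 19 protein-coding genes of the pseudoautosomal region were at 0 in all libraries, and the count tables list these genes on both sex chromosomes, so that a read fits 2 copies. CD99, the surface protein used to mark several sarcomas, is among these 18, so its 0 is not read as lack of expression.

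Nuclear protein-coding genes took 84.7%, 84.7% and 82.9% of the gene counts. The 13 mitochondrial mRNAs, which encode subunits of the respiratory chain and ATP synthase, took 11.03%, 11.01% and 13.48%. Long noncoding RNAs (lncRNAs) took 2.92%, 2.75% and 2.20%, with 2226 of 16689 expressed (13.3%). Pseudogenes took 0.668%, 0.653% and 0.594%, with 975 of 15176 expressed. Small nuclear RNAs of the spliceosome (snRNAs) took 0.295%, 0.396% and 0.491%, and small nucleolar RNAs (snoRNAs), which guide modification of ribosomal RNA, 0.0363%, 0.0472% and 0.0617%. The 95% Wilson interval for the share of protein-coding genes in Vector1C ran from 84.661% to 84.683%, and that in Vector2A from 84.651% to 84.672%. These intervals overlap, and the interval in Vector3B, 82.887% to 82.908%, lay below both. Neither overlap nor its lack is a test of a difference between clones. Such intervals and the floor of 3 counts cover counting error at most. The intervals take reads as independent, whereas reads that carry no molecular identifier can be copies of 1 molecule, so they can be too narrow.

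The class that differed most between libraries among those in the plot of RNA classes was mitochondrial ribosomal RNA. It took 0.190% and 0.302% of counts in Vector1C and Vector2A and 0.0251% in Vector3B, a 12.04-fold range. Both genes followed this order, with 25859, 44653 and 3740 counts for MT-RNR1 and 53713, 98032 and 8926 counts for MT-RNR2, the RNAs of the small and large mitochondrial ribosomal subunit. Classes of short RNAs did not all follow 1 order. Like the snRNAs and snoRNAs, misc_RNA, which holds the 7SL genes, was highest in Vector3B, with 0.0706%, 0.0804% and 0.163%, and so were small Cajal body RNAs, with 0.00481%, 0.005398% and 0.00832%. Mitochondrial tRNAs, with 0.0118%, 0.00622% and 0.00588%, and microRNA genes, with 0.00790%, 0.00640% and 0.0059973%, were highest in Vector1C and lowest in Vector3B. A class share can rest on few genes. RN7SL1 alone held 20695, 28156 and 71401 of the 29581, 38013 and 82569 misc_RNA counts. Of 57 misc_RNA genes with at least 1 CPM in some library, 12 were highest in Vector3B and 26 in Vector1C. Of 61 such snRNA genes, 14 were highest in Vector3B and 27 in Vector1C. Of 84 such snoRNA genes, 38 were highest in Vector3B and 9 in Vector1C. The libraries were made after removal of ribosomal RNA, and the part of that step in these shares was not tested.

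**Figure D1:**
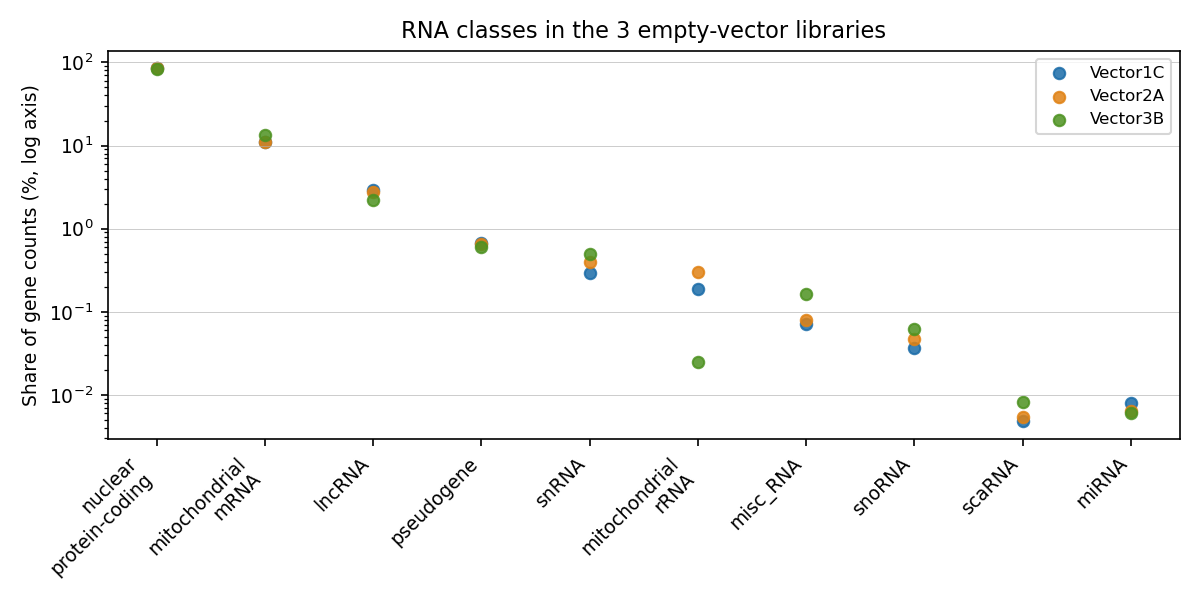
Share of the gene counts of each library (percent, log axis) taken by 10 RNA classes, with 1 point per empty-vector library. The points of most classes lie close together, and mitochondrial rRNA in Vector3B (0.0251%) lies apart from Vector1C (0.190%) and Vector2A (0.302%).

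The 12 protein-coding genes with the highest mean TPM were all mitochondrial. MT-CO3, a subunit of cytochrome c oxidase, led with 68866, 64398 and 75479 TPM, followed by MT-CO2, MT-ATP6, MT-ND4, MT-CO1, MT-ATP8, MT-ND2, MT-CYB, MT-ND1, MT-ND4L, MT-ND5 and MT-ND3. The 13th gene, MT-ND6, is encoded on the other strand of the mitochondrial genome and was much lower, at 970.0, 496 and 244 TPM. ACTB, the cytoplasmic actin, was the highest nuclear gene with 4712, 6143 and 7343 TPM, lowest in Vector1C and highest in Vector3B. TMSB10, a thymosin that binds actin monomers, followed with 1879, 2253 and 3116 TPM, and FTL, the ferritin light chain, with 2028, 1982 and 2528 TPM. The 10 genes with most counts held 11.3%, 11.4% and 14.2% of the counts of a library, and 937, 938 and 838 genes together held 50%.

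Among other RNA classes, the highest level per length belonged to RNU4-2, a U4 small nuclear RNA, with 37790.0, 46993 and 57563 TPM. RNU4-1 came next, and RNU5B-1, a U5 small nuclear RNA, was at 6284, 10914 and 7592 TPM. RN7SL1, the RNA of the signal recognition particle, had 5197, 5986 and 12807 TPM and was highest in Vector3B. SNORA73B, a small nucleolar RNA, had 1794, 2230.4 and 3053 TPM. These genes belong to families with near-identical copies, and reads that fit several copies are not counted, so their levels are uncertain. RNAs this short are also measured only as far as the library's fragments hold them.

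All 15 housekeeping genes were expressed. GAPDH, a glycolytic enzyme, was at 1345, 1440.3 and 1852 TPM, and TBP, the TATA-binding protein, at 35.8 to 38.7 TPM. All 15 proliferation genes were expressed too, against 56.9% of all nuclear protein-coding genes, with a median of 184.8 TPM against 3.41 TPM over all genes. PCNA, the clamp of DNA polymerase, was at 672, 625 and 525 TPM. TOP2A, the topoisomerase of dividing cells, was at 490.1, 421 and 157 TPM, and CDK1, the mitotic kinase, at 262, 209 and 89.7 TPM. TOP2A and CDK1 were lowest in Vector3B by over 2-fold, whereas FOXM1, a transcription factor of the same phase, was highest there, at 174, 175 and 206 TPM. Cytosolic ribosomal protein genes were expressed in 83 of 86 cases, against the same 56.9%. Their summed level was 17057, 21486 and 19462 TPM.

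**Figure D2:**
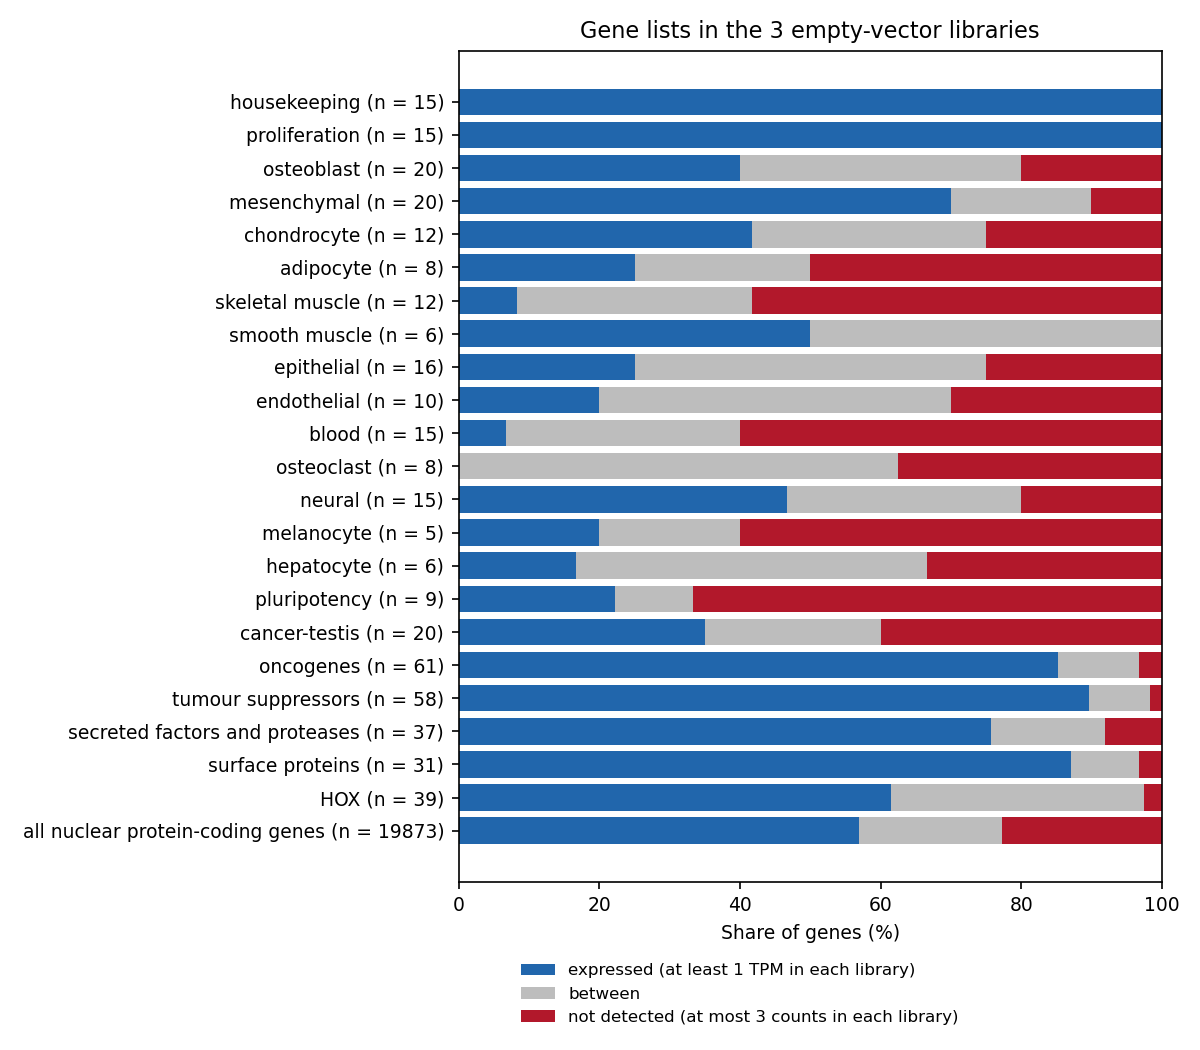
Share of the genes of each list (percent of members) that were expressed, at a trace level or not detected in the 3 empty-vector libraries, with the number of members in parentheses and all nuclear protein-coding genes in the lowest bar. Proliferation, tumour suppressor and oncogene lists are mostly expressed, and blood, skeletal muscle and osteoclast lists mostly not.

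Of 20 osteoblast genes, 8 were expressed, 8 at a trace level and 4 not detected, a share expressed of 40% against 56.9% over all nuclear protein-coding genes. The expressed members included RUNX2, MSX2, ALPL, COL1A1, SPARC, BMP2 and TNFRSF11B. RUNX2, the first transcription factor of the lineage (ENSG00000124813.23, chromosome 6, 45328157 to 45664349), was at 88.4, 65.7 and 61.2 TPM, a mean of 71.8 TPM ± 14.6 (SD, n = 3). SPARC, the matrix glycoprotein osteonectin, was at 1152, 1122 and 1333 TPM and lay among the 30 protein-coding genes of highest level. TNFRSF11B, which encodes the decoy receptor osteoprotegerin, was at 35.2, 28.9 and 33 TPM. MSX2, a transcription factor of bone and tooth development, spanned 8.64 to 9.89 TPM over the 3 libraries. BMP2, a ligand that drives bone formation, spanned 5.97 to 6.81 TPM. ALPL, the alkaline phosphatase of mineralisation, was only just over the limit, at 1.23, 1.45 and 3.80 TPM, and was highest in Vector3B.

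The 4 osteoblast genes that were not detected were SP7, IBSP, BGLAP and MEPE. SP7 (chromosome 12, 53326575 to 53345315), IBSP, BGLAP and MEPE had 0 counts in all 3 libraries, and none of them shares over 50% of its exon bases with another gene. DMP1, SOST and PHEX, which mark osteocytes, were at a trace level, with PHEX at 0.274, 0.257 and 0.413 TPM. None of these genes reached 1 TPM in any library. The type I collagen genes were split. COL1A1 (chromosome 17, 50184101 to 50201632) was at 373, 414 and 459 TPM, a mean of 415 TPM ± 43.3 (SD, n = 3). COL1A2 (chromosome 7, 94394895 to 94431227), whose chain pairs with COL1A1 in the usual trimer, was at 0.0833, 0.0588 and 0.293 TPM. In counts, COL1A1 had 44685, 58673 and 77104 counts and COL1A2 12, 10 and 59 counts, and COL1A2 was highest in Vector3B.

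Of 20 mesenchymal genes, 14 were expressed (70%, against 56.9% of all nuclear protein-coding genes), 4 at a trace level and 2 not detected. VIM, the intermediate filament vimentin, was highest, at 1238, 1136 and 1097 TPM. FN1, fibronectin, was at 174, 85.4 and 166 TPM, lower in Vector2A than in both others. LUM, a collagen-binding proteoglycan, was at 67.2, 65.1 and 20.3 TPM, lower in Vector3B than in both others. CDH2 (N-cadherin) spanned 43.7 to 51.3 TPM, above the repressor of epithelial genes SNAI2, at 19 to 24.1 TPM, in every library. The 2 not detected were TWIST1, a transcription factor of mesoderm (chromosome 7, 19020991 to 19117636), and NT5E, the surface enzyme CD73 used to define mesenchymal stromal cells (chromosome 6, 85449584 to 85495791). Both had 0 counts in all libraries. THY1 and ENG, which are used with NT5E in that definition, were expressed, THY1 at 19.7 to 29 TPM and ENG at 4.87 to 8.59 TPM. DCN, the proteoglycan decorin, was at a trace level.

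Chondrocyte genes were expressed in 5 of 12 cases (41.7%, against 56.9% of all nuclear protein-coding genes). SOX9, the transcription factor that starts cartilage formation (chromosome 17, 72121020 to 72126416), was at 325, 296 and 325 TPM, a mean of 315 TPM ± 16.6 (SD, n = 3). Its level per length was above that of RUNX2 in every library. HAPLN1, which links hyaluronan to proteoglycan, was at 335, 387 and 178 TPM. MATN3, a cartilage matrix protein, was expressed as well, at 11.5 to 15.4 TPM. SOX6 and SOX5, which act with SOX9, were at 10.3 to 15 TPM and 6.98 to 11.8 TPM. Most structural genes of cartilage were not expressed: COL2A1, COL9A1 and COMP were not detected, and ACAN, the core protein aggrecan, was at a trace level with 0.378, 0.419 and 1.01 TPM.

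Of 12 skeletal muscle genes, PAX7 alone was expressed (8.33%, against 56.9% of all nuclear protein-coding genes), at 6.31, 5.20 and 7.01 TPM. PAX7 is the transcription factor of muscle stem cells. Of the muscle factors that follow it, MYOD1, MYF5, MYF6 and MYOG were not detected, and neither were CKM, MYH8 and TNNT3. Adipocyte genes were expressed in 2 of 8 cases (25%, against the same 56.9%). These were PPARG, the master factor of fat cells, at 5.01 to 5.57 TPM and LPL, lipoprotein lipase, at 4.52 to 7.02 TPM. ADIPOQ, FABP4, LEP and CIDEC were not detected. Smooth muscle genes were expressed in 3 of 6 cases (50%, against 56.9%). CNN1 was highest at 9.45, 12.5 and 13.3 TPM, followed by SMTN at 5.92 to 10.4 TPM. TAGLN, an actin-binding protein, was at 1.93, 4.56 and 6.05 TPM, lowest in Vector1C.

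Epithelial genes were expressed in 4 of 16 cases (25%, against 56.9% of all nuclear protein-coding genes). KRT18 and KRT8, the keratin pair of simple epithelia, were highest, with KRT18 at 58.7, 73 and 90.9 TPM. KRT8 was at 25.1, 38.9 and 43 TPM, and both were lowest in Vector1C and highest in Vector3B. EPCAM, an epithelial adhesion molecule, and CDH1, E-cadherin, were lower, at 2.74 to 3.58 TPM and 1.38 to 1.64 TPM. KRT19, CLDN3, GRHL2 and OVOL1 were not detected. The count of expressed epithelial genes was 7 at a limit of 0.5 TPM, where KRT5, KRT14 and CLDN4 pass, and also 7 without mitochondrial genes in the total or with the length of the longest transcript. Endothelial genes were expressed in 2 of 10 cases (20%, against the same 56.9%), and in 1 at a limit of 2 TPM. The 2 were the transcription factor ERG at 2.85 to 3.88 TPM and the angiopoietin receptor TEK at 1.67 to 4.18 TPM. TIE1, CLDN5 and EMCN were not detected. Of 15 blood genes, CD34 alone was expressed (6.67%, against 56.9%), at 2.96 to 4.07 TPM. CD3D, CD3E, CD14, SPI1, GATA1, HBB, HBG1 and LYZ were not detected, and the summed level of the list was 4.77, 4.22 and 3.85 TPM. No osteoclast gene of 8 was expressed (0%, against 56.9%), and ACP5, TNFRSF11A and OCSTAMP were not detected. MMP9, a protease of osteoclasts, lay at the limit with 1.16, 0.980 and 1.65 TPM, and CTSK, the bone-degrading protease cathepsin K, just under it with 0.925, 0.850 and 0.864 TPM. The count of expressed osteoclast genes was 2 at a limit of 0.5 TPM and 2 without mitochondrial genes in the total. It was 1 at a limit of 1 CPM with no length, 1 with the length of the longest transcript and 1 without Vector2A. In these bulk libraries, a low level in all cells and a higher level in few cells cannot be told apart.

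Neural genes were expressed in 7 of 15 cases (46.7%, against 56.9% of all nuclear protein-coding genes). NCAM1, a neural cell adhesion molecule, was at 47.4, 48.1 and 46.4 TPM. SOX2, a factor of stem cells and neural progenitors, was at 25.3, 31.5 and 21.6 TPM, and MAP2, a microtubule protein of dendrites, at 18.5, 20.7 and 16.1 TPM. The first of these, NCAM1, varied least between clones. NES, the intermediate filament nestin, was at 9.27, 13.8 and 16.4 TPM, lowest in Vector1C. OLIG2, a factor of oligodendrocytes, was at 3.31 to 5.16 TPM. NEUROD1 and SOX10 were not detected. Melanocyte and hepatocyte lists, of 5 and 6 genes, had 1 expressed gene each (20% and 16.7%, against 56.9%). They were MITF, the master factor of pigment cells, at 8.82 to 14 TPM and SERPINA1, the protease inhibitor antitrypsin, at 17 to 23.8 TPM. MLANA, TYR and DCT, and TTR and FGB, were not detected.

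**Figure D3:**
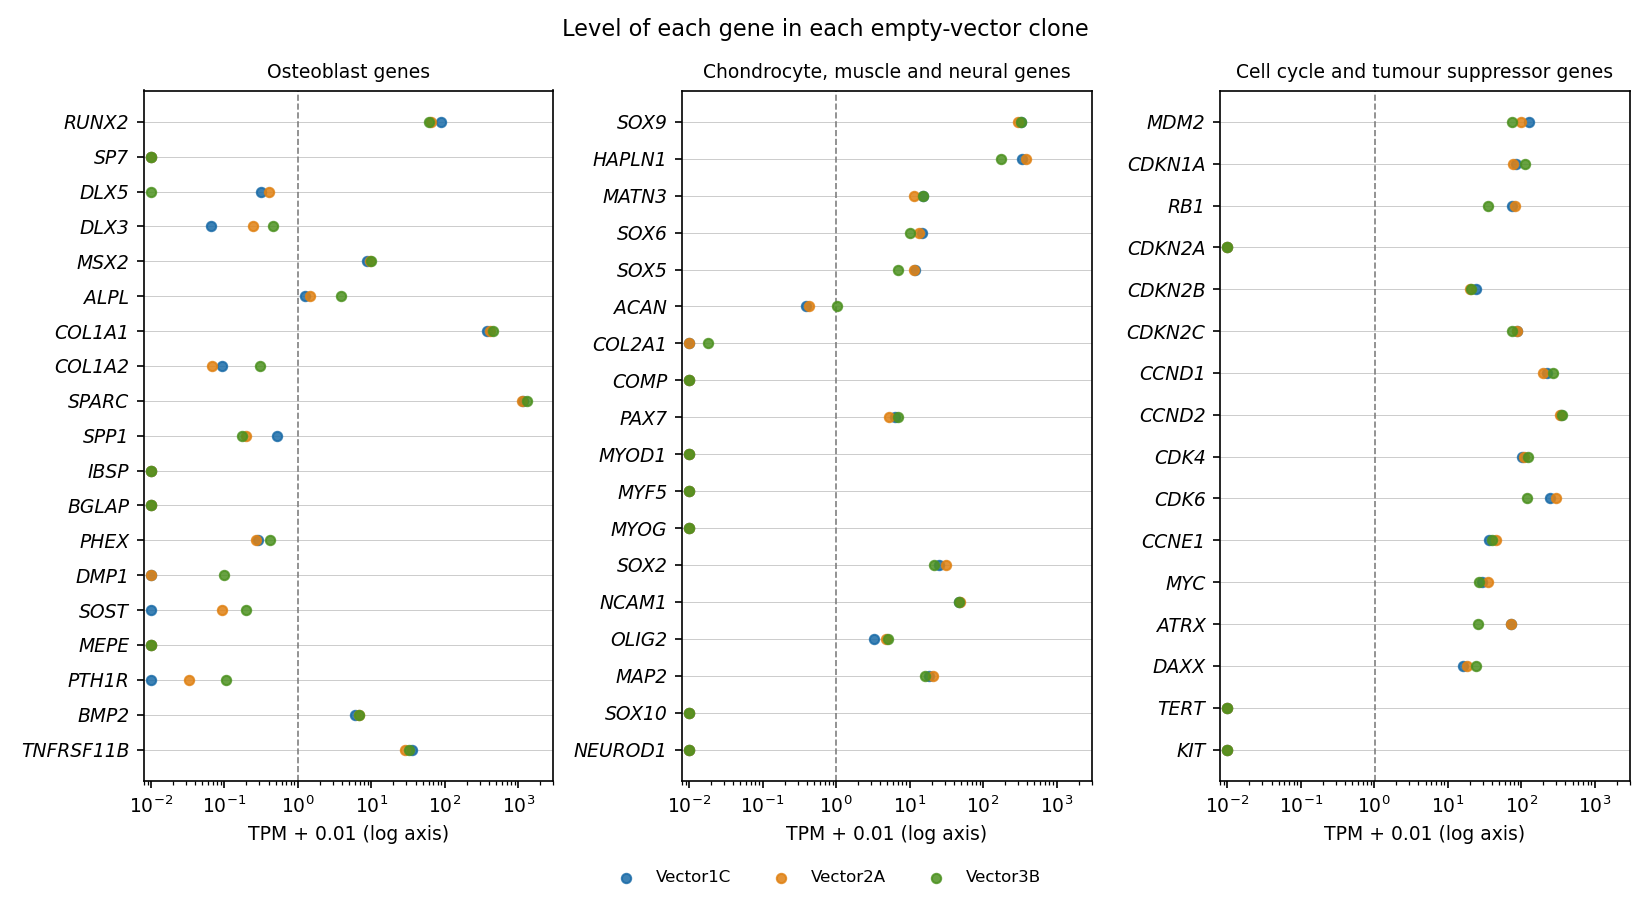
Level of each gene in each empty-vector library (TPM + 0.01, log axis, 1 point per library), for 19 of the 20 osteoblast genes, for chosen chondrocyte, muscle and neural genes, and for chosen cell cycle and tumour suppressor genes. The dashed line marks 1 TPM, and points at the left edge are 0 counts, as for SP7, MEPE, CDKN2A, TERT and KIT.

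Pluripotency genes were expressed in 2 of 9 cases (22.2%, against 56.9% of all nuclear protein-coding genes). LIN28B, which blocks let-7 microRNA maturation, was at 17.2, 13.3 and 6.57 TPM, and SALL4, a zinc finger factor of stem cells, at 2.06 to 4.79 TPM. POU5F1, NANOG, LIN28A, DPPA4, ZFP42 and UTF1 were not detected. Cancer-testis genes, which are normally limited to germ cells and are often active in tumours, were expressed in 7 of 20 cases. That share was 35%, against 56.9% of all nuclear protein-coding genes. PRAME was highest, at 273, 237 and 252 TPM. MAGEA4 was at 134, 74 and 149 TPM, and MAGEA1 at 86.1, 61.8 and 97.8 TPM. Both were lowest in Vector2A. MAGEC1, MAGEA12 and MAGEA6 lay below them, at 40.8 to 54.6 TPM, 36.1 to 53.2 TPM and 31.8 to 43.7 TPM, and the meiosis gene TEX14 at 1.20 to 2.24 TPM. MAGEA10, MAGEC2, CTAG1B, SSX2, GAGE1, PAGE5, DDX4 and SYCP1 were not detected. MAGEA, SSX, GAGE and CTAG1 genes have near-identical copies, so these levels, including the zeros, are uncertain.

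Of 61 oncogenes, 52 were expressed (85.2%, against 56.9% of all nuclear protein-coding genes), 7 were at a trace level and 2 were not detected. The highest by mean level was CCND2, a D-type cyclin, at 346, 332 and 358 TPM. CCND1, its paralog, was at 221, 199.6 and 274 TPM. Their kinase partners were expressed too. CDK4 was at 103, 109 and 126 TPM, and CDK6, lowest in Vector3B, was at 248, 297 and 119.8 TPM. NRAS and HRAS encode small GTPases of growth signalling. NRAS was at 412, 359 and 259 TPM, above HRAS, at 2.82 to 4.30 TPM, in every library. MYC, the growth-promoting transcription factor (chromosome 8, 127735434 to 127742951), was at 29.4, 35 and 26.8 TPM, a mean of 30.4 TPM ± 4.20 (SD, n = 3). MDM2, a ubiquitin ligase, was at 127, 100.3 and 74.5 TPM, lowest in Vector3B, and its relative MDM4 at 39.7 to 53.3 TPM.

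Receptor tyrosine kinases differed widely in level. AXL was at 174, 154 and 175 TPM and MET, the receptor of hepatocyte growth factor, at 138, 95.7 and 61.8 TPM. IGF1R, the receptor of insulin-like growth factors, spanned 45.8 to 54.9 TPM, and the platelet-derived growth factor receptors PDGFRA and PDGFRB 14.6 to 16.8 TPM and 15.4 to 24.6 TPM. EGFR, at 3.53 to 4.78 TPM, and ERBB2, at 8.25 to 11.5 TPM, were lower than these in every library. ERBB3, ERBB4, FGFR3, ALK, RET and NTRK2 were at a trace level, and KIT, the receptor of stem cell factor (chromosome 4, 54657267 to 54740783), had 0 counts in every library. YES1, a kinase of the SRC family, was at 201, 195 and 87.6 TPM, far above SRC itself at 8.86 to 14.3 TPM. YAP1, an effector of the Hippo pathway, was at 159, 135 and 124 TPM. Of the named oncogenes, MET, CDK6 and YES1 were over 2-fold lower per length in Vector3B than in 1 or both of the other libraries.

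Of 58 tumour suppressors, 52 were expressed (89.7%, against 56.9% of all nuclear protein-coding genes). A further 5 were at a trace level and 1, CDKN2A, was not detected. CDKN1A, an inhibitor of cyclin-dependent kinases, was at 84.2, 76.9 and 113 TPM, and was highest in Vector3B. RB1 (chromosome 13, 48303744 to 48599436) was at 76, 81.1 and 35.4 TPM, lowest in Vector3B, and its relatives RBL1 and RBL2 were at 40.6 to 78.8 TPM and 35.9 to 45.6 TPM. NF2, whose product restrains YAP1, was the highest of the list at 119, 126 and 153 TPM. LSAMP, FHIT, TP63, DAPK1 and SERPINB5 were at a trace level.

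BRCA2, a gene of DNA break repair, was the member with the widest range, at 31.8, 19.7 and 4.07 TPM or 6116, 4468 and 1094 counts. It was the only expressed tumour suppressor with a range of CPM over 4-fold, at 6.93-fold, and lowest in Vector3B. BRCA1, another gene of break repair, the damage kinase gene ATM and APC, a brake on beta-catenin, were lowest there too, with 26.9, 21 and 7.74 TPM for BRCA1. ATM spanned 7.37 to 17.5 TPM and APC 7.11 to 27.7 TPM. ATRX, a chromatin remodeller, was at 73, 72.7 and 25.6 TPM, lowest in Vector3B. Its partner DAXX was at 15.9, 18.4 and 24.6 TPM, highest in Vector3B. TERT (chromosome 5, 1253147 to 1295068) had 0 counts in all 3 libraries, and its RNA partner TERC was listed at 0 as well. TERC shares 80.96% of its exon bases with another gene on the same strand, so its 0 is not read as lack of expression. The gene counts hold no information on mutations, so whether the expressed suppressors make intact proteins was not analysed here.

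CDKN2A and its neighbours on chromosome 9 differed sharply. CDKN2A (21967752 to 21995301, minus strand) and the neighbouring lncRNA CDKN2A-DT (21966929 to 21967751) had 0 counts in all libraries. On one side, MTAP (21802636 to 21937651), an enzyme of methionine salvage, had 3901, 4349 and 3438 counts, or 20.2, 19 and 12.7 TPM. On the other side, CDKN2B (22002903 to 22009305), which inhibits the same kinases, had 1272, 1278 and 1556 counts, or 23.9, 20.3 and 20.9 TPM, a mean of 21.7 TPM ± 1.92 (SD, n = 3). CDKN2B-AS1, an antisense lncRNA that runs across CDKN2B, had 7, 13 and 4 counts. CDKN2C, a further inhibitor of the family on another chromosome, was at 87.7, 86.7 and 75.9 TPM. Gene counts cannot tell a silent gene from a deleted one. As printed above, both sequences upstream of CDKN2A are rich in CG dinucleotides, with observed-to-expected ratios of 1.08 and 0.727 against 0.654 for CDKN2B, but DNA methylation was not measured here.

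Of 37 secreted factors and proteases, 28 were expressed (75.7%, against 56.9% of all nuclear protein-coding genes). A further 6 were at a trace level and 3, IGF1, HGF and MMP1, were not detected. TIMP1, an inhibitor of metalloproteases, was highest at 337, 285 and 453 TPM. CCN2 and THBS1, matricellular proteins, were at 246 to 359 TPM and 197 to 275 TPM. MMP2, a gelatinase, was at 185, 204 and 279 TPM, and its activator MMP14 at 25.7 to 48.4 TPM. TIMP1, MMP2 and MMP14 were each highest in Vector3B. TGFB2 was the highest of the transforming growth factors in every library, at 176, 168 and 115 TPM, with TGFB1 at 30.3 to 70.3 TPM. BMP4, a bone morphogenetic protein, was at 111 to 155 TPM. MET was thus expressed without its ligand HGF, and IGF1R with IGF2 at 2.04 to 3.29 TPM but without IGF1. IL6 was at a trace level, whereas LIF, of the same cytokine family, was at 19.5 to 29.7 TPM. PDGFB, the ligand of PDGFRB, was at 1.35, 1.67 and 7.27 TPM. In CPM, PDGFB was at 1.73, 2.24 and 10.5, highest in Vector3B by 4.68-fold over the next library.

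Of 31 genes listed for surface proteins, 27 were expressed (87.1%, against 56.9% of all nuclear protein-coding genes). ITGB1, the common integrin beta chain, was highest at 284, 250.4 and 204 TPM. Of the integrin alpha chains that pair with it, ITGA3 was at 36.9 to 71.8 TPM, ITGAV at 35 to 59.9 TPM and ITGA6 at 25 to 46.4 TPM. CD44, the hyaluronan receptor, was at 56.8, 43.9 and 50.1 TPM. Genes of proteins studied as targets in sarcoma were also expressed as RNA, and protein was not measured here. The immune checkpoint gene CD276 was at 17.6 to 36 TPM and the orphan receptor gene ROR1 at 42.1 to 48.4 TPM. The ephrin receptor gene EPHA2 was at 40.9 to 66.4 TPM and B4GALNT1, of an enzyme of ganglioside GD2 synthesis, at 16.6 to 18.9 TPM. ST8SIA1, which makes the GD3 precursor of GD2, was at a trace level, with 1.11, 1.80 and 0.467 TPM. The antigen-presenting HLA-B and HLA-C were expressed, at 22 to 31.8 TPM and 33.5 to 50.8 TPM. Their genes are highly variable between people, so reads that differ from the reference can be lost.

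Of 28 noncoding RNAs listed, 19 were expressed (67.9%, against 13.3% of all lncRNAs). The list was made of RNAs known to be abundant and also holds RNAs of other classes. MALAT1, a nuclear lncRNA of speckles, was at 1678, 1241 and 498 TPM, lower in Vector3B than in both others. NORAD, which binds PUMILIO proteins, was at 419.8, 376 and 281 TPM. Both were lowest in Vector3B. TUG1 was at 151 to 241 TPM and GAS5, a host of small nucleolar RNAs, at 69.6 to 94.4 TPM. NEAT1, the scaffold of paraspeckles, was at 31.2 to 54.4 TPM, far below MALAT1, its neighbour on chromosome 11. HOTAIR, which is transcribed from the HOXC cluster, was at 7.65 to 8.25 TPM. BCYRN1, a primate RNA derived from Alu sequence, was at 15.4, 22.2 and 56.6 TPM and was highest in Vector3B. MEG3, an imprinted lncRNA (chromosome 14, 100779410 to 100861031), had 0 counts in all libraries and shares 1.34% of its exon bases, and H19, another imprinted lncRNA, was at a trace level with 15, 47 and 6 counts. RN7SK, RN7SL2, RMRP, RPPH1 and VTRNA2-1 were listed at 0. Nearly every cell uses several of these, and all but RMRP share over 50% of their exon bases with another gene, so their zeros are not read as absence.

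HOX genes set position along the body axis, and their pattern is often kept by cells in culture. Of 39 genes, 24 were expressed (61.5%, against 56.9% of all nuclear protein-coding genes). A further 14 were at a trace level and 1, HOXB1, was not detected. HOXB7, at 36.2, 48.3 and 42.1 TPM, and HOXB9, at 34.6 to 42.8 TPM, had the highest mean levels. They were followed by HOXC6 at 21.6 to 29.6 TPM, HOXC13 at 17.6 to 33.5 TPM and HOXC8 at 22 to 24 TPM. In the HOXA cluster, HOXA9 was at 16.2 to 22.7 TPM, and HOXA2, HOXA4 and HOXA6 were at a trace level. In the HOXD cluster, only HOXD8 was expressed, at 12.1 to 13.2 TPM, and the 8 others were at a trace level. Most genes of each of the HOXA, HOXB and HOXC clusters were thus expressed, and most of HOXD were not. The share over the whole list was near that over all nuclear protein-coding genes.

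Promoter sequences were compared between genes that were expressed and genes that were not detected, over the 250 bases before 1 annotated start. RefSeq sequences were matched by symbol for 15323 of the 19873 genes. Only the first start listed for each gene was used, and it need not be the start in use in these cells. The median observed-to-expected ratio of CG dinucleotides was 0.833 for expressed genes, 0.575 for trace genes and 0.278 for genes not detected, against 0.742 over all matched genes. When all matched promoters were ordered by that ratio and divided into 4 equal parts, the share of genes expressed was 19.8%, 59.6%, 78.6% and 83.8% from the lowest part to the highest. The share not detected fell over the same parts, from 50.8% to 18.1%, 6.47% and 4.52%. TATAAA on either strand was present in 5.05% of promoters of expressed genes and 19.9% of those not detected (9.22% of all). GGGCGG on either strand was present in 68.4% and 28.7% (56.7% of all), and it contains a CG dinucleotide itself. CCAAT on either strand was present in 35.54% and 34.96% (34.77% of all). These genes are not independent of each other, and a match is a stretch of letters, not a measured binding site.

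Among the sequences printed above, CDKN2A and TERT thus lie in the parts of the range in which most genes are expressed, and SPARC in the lowest part, at 0.349 over its 190 bases. MEPE, not detected, had a ratio of 0.192. Oncogenes and tumour suppressors had median ratios of 0.846 (46 matched) and 0.857 (45 matched), and osteoblast genes 0.258 (11 matched), the blood list 0.220 (8 matched). CCAAT was present in 84.6% of the 13 matched proliferation genes and in 85% of the 20 matched HOX genes, against 34.77% of all.

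The 3 clones were close in their general pattern and differed in many genes by moderate factors. Vector1C and Vector2A differed by 4-fold or more in 186 of 15947 genes with at least 1 CPM in either (1.17%). Vector1C and Vector3B differed so in 374 of 15967 (2.34%), and Vector2A and Vector3B in 353 of 15867 (2.22%). Fewer genes, 14479, 14331 and 14321, had at least 1 CPM in both libraries of the same pairs. Over these, the median absolute log2 difference was 0.20, 0.43 and 0.36, and Pearson's r of log2 CPM was 0.987, 0.957 and 0.964. Genes under 1 CPM in either library of a pair are left out of both measures. These correlations are across genes, which are not independent. The common biological coefficient of variation over the 3 libraries, estimated by edgeR, was 0.294, and 0.197 without Vector3B, 0.318 without Vector1C and 0.340 without Vector2A. Of 290 expressed list entries, BRCA2, PDGFB and BCYRN1 had a range of CPM of 4-fold or more. A gene in more than 1 list counts in each. Of the 11302 expressed nuclear protein-coding genes, 58 had such a range, and BCYRN1, which is noncoding, lies outside that background. Among the steadiest genes of at least 10 CPM were ARPIN, with 107, 108 and 107 CPM, FAM149B1, UTP25, DIS3L, PTK2, PNMA2, ATP1B1, MCMBP and LPIN2.

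Much of the distance of Vector3B ran along the base composition of the transcripts. In the lowest of 5 equal groups of expressed protein-coding genes by GC content (29.2% to 40.1%), the median log2 difference of Vector3B from the mean of the others was -0.64. In the next groups it was -0.21, 0.09, 0.35 and, at 56.6% to 74.2% GC, 0.64. Vector1C ran the opposite way, from 0.38 to -0.48, and Vector2A less steeply, from 0.28 to -0.14. In the lowest group, 5.57% of genes were higher in Vector3B, and in the highest group 96.95%. Transcript length went with smaller differences, from 0.24 in the shortest of 5 groups to -0.11 in the longest for Vector3B. After the median of each of 20 GC bins and then of each of 20 length bins was subtracted, 118, 135 and 135 genes differed 4-fold in the 3 pairs. This correction was chosen after seeing the data, and it would also remove any biological difference that follows GC content. The cause of the gradient was not tested, and it touches each single-gene difference between clones given here, such as the low level of BRCA2 and ATRX and the high level of DAXX in Vector3B.

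**Figure D4:**
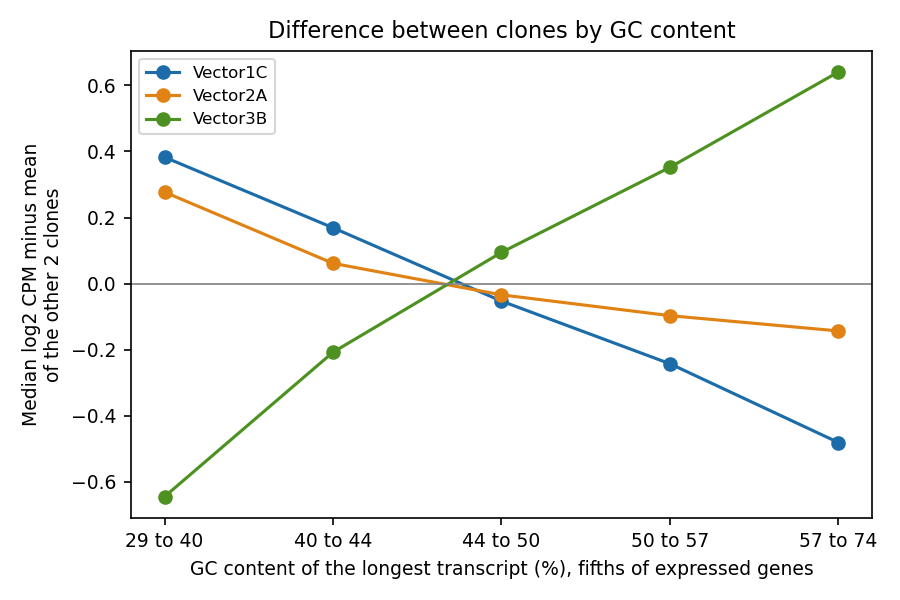
Median log2 CPM of each library minus the mean of the other 2, over 5 equal groups of the expressed protein-coding genes ordered by the GC content of the longest transcript. Vector3B rises from -0.64 to 0.64, Vector1C falls from 0.38 to -0.48 and Vector2A falls from 0.28 to -0.14.

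Genes set apart in 1 clone were at least 4-fold above or below both others. There were 27 above and 40 below in Vector1C, 16 and 60 in Vector2A, and 22 and 159 in Vector3B, of 16334 genes. After the correction for GC content and length these were 13 and 18, 9 and 35, and 6 and 23. In Vector1C, the 4 named genes above were the mitochondrial tRNA genes MT-TY, MT-TQ, MT-TS1 and MT-TA, all on the strand opposite to most mitochondrial mRNAs. MT-TQ had 1124, 189 and 122 counts and MT-TA 262, 62 and 2 counts. MT-ND6, the mRNA on that strand, had 6782, 4101 and 2385 counts, in the same order. Below in Vector1C were ATP1B2, RNVU1-2A, CCDC177, CXCL8 and MRPL54. CXCL8, the neutrophil chemokine interleukin 8, had 32, 174 and 175 counts, and ATP1B2, a sodium pump subunit, 7, 116 and 75 counts.

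In Vector2A, NPIPA5 was the 1 gene above that met the naming rule, with 14, 121 and 18 counts, and it belongs to a family of near-identical copies. Below were SLN, CLEC7A, PLEKHG4B, IFT172 and SLC6A17. SLN, which encodes the calcium pump regulator sarcolipin, had 118, 3 and 117 counts. CLEC7A, the receptor dectin-1, had 142, 10 and 320 counts, a CPM lower by 15.995-fold than in Vector1C. IFT172, a subunit of the ciliary transport complex, had 36, 0 and 121 counts, at least 13.5-fold lower than in Vector1C with the 0 set to the floor of 3 counts in that library. SLC6A17, a transporter of neutral amino acids, had 31, 0 and 155 counts, at least 11.6-fold lower by the same floor. In Vector3B, RNU1-28P, PDGFB, SYN1, MYL4 and SLC6A17 were above. PDGFB had 72, 105 and 541 counts and SYN1, a protein of synaptic vesicles, 51, 34 and 279 counts. Below were MT-TA, MT-RNR1, GABRG1, MT-RNR2 and RGPD8, with 302, 473 and 46 counts for GABRG1, a subunit of the GABA receptor. Most of these genes were at low counts: with a minimum of 5 CPM, the genes set apart numbered 4, 4 and 36.

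The differences were then placed along the chromosomes, in windows of 50 or more neighbouring expressed genes. As measured, 191 of 417 windows had a median beyond 0.3 on the log2 scale in some clone, 177 of them in Vector3B, and chromosome 19, rich in GC, was highest in Vector3B with a median of 0.46. After the correction for GC content and length, 9 windows were left, all 9 beyond 0.3 in Vector2A and 4 also in Vector3B. They formed 3 runs. On chromosome 2, from 200889327 to 233295674, the median of the 125 genes in Vector2A was -0.45 (-0.39 without the correction), and 114 of them (91.2%) were lower. Vector3B had 0.37 and Vector1C 0.07 over the same genes. XRCC5, the DNA end-binding subunit Ku80, had 643, 476 and 703 CPM there, and FN1 963, 495 and 1037 CPM. Both were lowest in Vector2A, as was the nucleolin gene NCL with 478, 381 and 468 CPM. Of the 8 genes of highest level in the run, 5 had their lowest CPM, before the correction, in Vector2A. EEF1B2 and RPL37A, of the protein synthesis machinery, were lowest in Vector1C.

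On chromosome 7, from 83955777 to 102426676, the median of 100 genes in Vector2A was 0.33 (0.30 without the correction), and 92 were higher. Vector1C had -0.09 and Vector3B -0.25. CDK6 lies in this run, with 973, 1224 and 531 CPM. CDK14, a relative of CDK6, had 309, 371 and 268 CPM, and SRI, a calcium-binding protein, 111, 137 and 89.4 CPM. These 3 were highest in Vector2A, as were 6 of the 8 genes of highest level in the run by CPM before the correction. SDHAF3 had nearly equal values in Vector1C and Vector2A. On chromosome 19, from 35154730 to 40021038, the median of 75 genes in Vector2A was 0.29 (0.22 without), and 61 were higher. Vector1C had -0.06 and Vector3B -0.27 over these genes. Over the first 50 of them, to 38383850, the median was -0.37 in Vector3B and 0.36 in Vector2A, and 42 (84%) were lower in Vector3B. Before the correction, 2 of the 8 genes of highest level in the run had their highest CPM in Vector2A. They were CLIP3, a microtubule-linked protein, with 137, 188 and 183 CPM, and the zinc finger gene ZNF146, with 139, 156 and 42.8 CPM. The other 6, RPS16, CAPNS1, HNRNPL, COX6B1, ACTN4 and EID2, were highest in Vector3B, and EID2 was lowest in Vector2A, with 56.2, 49.9 and 58.7 CPM. This order compares single libraries before the correction, whereas the median is against the mean of the other 2. The measures are unlike, so the order of these genes is not set against the median. Each difference is from the mean of the other 2 clones, so a shift in 1 clone also moves the others the opposite way. Gene copy number was not measured here, and its part in these runs was not tested.

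**Figure D5:**
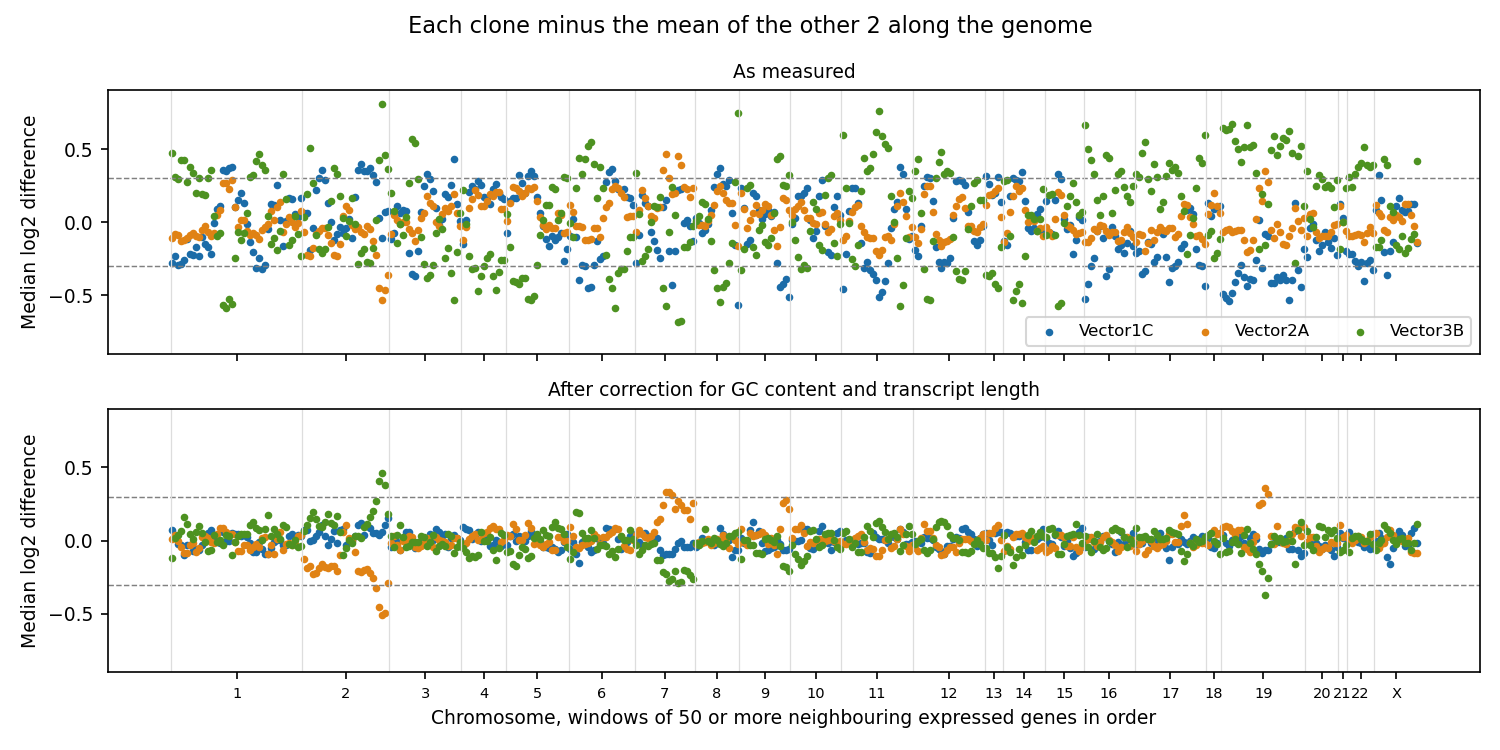
Median log2 CPM of each library minus the mean of the other 2 in 417 windows of neighbouring expressed genes, in order along the chromosomes, as measured (top) and after the correction for GC content and transcript length (bottom), with dashed lines at -0.3 and 0.3. After the correction, the windows beyond the lines lie on chromosomes 2, 7 and 19, with Vector2A at -0.45 over the run on chromosome 2.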

How the data were processed

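RNA sequencing of 3 empty-vector U2-OS libraries was used out of 9 in the series. Reads were aligned with STAR 2.7.1a to GRCh38, per the submitters' processing notes, and the deposited values are raw counts per gene, not normalized by the authors. The annotation and counting settings are not given in the sources used here. Counts in column 3 of each deposited table were used as the gene-strand counts, because the opposite strand held 5.59% to 5.71% of stranded counts. Summary lines at the head of each table stayed out of the totals. Of 60609 identifiers, 60295 were matched to GENCODE 44, and the rest held 0.0586% to 0.0616% of counts.

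TPM used the exon-union length. CPM used TMM factors and the coefficient of variation edgeR 4.0.16 after filterByExpr (R 4.3.3). Log2 differences used log2(CPM + 0.1). DESeq2 1.42.0 size factors were an alternative scaling. The fold rule was tested on artificial counts with known answers, with no spread beyond counting error. The genes changed in that test had a mean of at least 5 CPM, above most genes set apart here. The correction was tested on artificial log2 differences with a known GC slope and a known shift, not on counts. Genes were named by level within each list, by a 4-fold difference from both other clones at a mean CPM of at least 1, or by the steadiest CPM. Neighbours of CDKN2A, MT-ND6, genes in the chromosomal runs and some list members were named after their values were seen. The members and lists were chosen with earlier results of these data known. The 6 NCBP2 libraries were not analysed here. Some list members are counted in their lists but not reported here by name.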

Additional observations from a re-analysis of the deposited data

How the results depend on the processing

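Under the alternatives, 67 values of the main results stayed within a set limit of the value reported and 28 did not, and for single lists 175 did and 9 did not. The limit was 1.5 times for counts and the coefficient of variation, 1 SD over the 3 libraries for shares, and the semi-interquartile range for the promoter ratio. It is wide: leaving out 1 library in turn, the share of mitochondrial rRNA ran from 0.108% to 0.246% (0.172% with all), that of misc_RNA from 0.0755% to 0.122% (0.105%), and the coefficient of variation from 0.197 to 0.340. At 0.5 TPM, 3017 lncRNAs were expressed. At a limit of 2 TPM, 1443 were, in place of 2226. Without mitochondrial genes in the total, nuclear protein-coding genes took 95.6% of counts in place of 84.1%. With no filter on low counts, the coefficient of variation was 0.451 in place of 0.294. The differences between clones depended far more on the rule. For Vector1C and Vector2A, Vector1C and Vector3B, and Vector2A and Vector3B, the genes apart numbered 1058, 2911 and 2415 at 2-fold. They numbered 8, 65 and 66 with at least 5 CPM, 7842, 8265 and 8310 with no filter, where 1 count against 0 passes, and 118, 135 and 135 after the correction for GC content and length. Genes set apart in Vector1C, Vector2A and Vector3B numbered 498, 449 and 1578 at 2-fold, and 4, 4 and 36 with at least 5 CPM. They numbered 3823, 3934 and 4133 with no filter, and 31, 44 and 29 after the correction. Windows beyond 0.3 fell from 191 to 9 with the correction. The cause of these moves was not tested beyond the construction of each rule. Chromosomes and windows replaced chromosome arms, for which no boundaries were used here. With 1 library per clone, differences at low counts rest on few reads and have no replicate. No paired analysis was possible because the vector libraries form 1 group and no test was made.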
